A study of Mus musculus with 6 samples.

Results

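The miRNA repertoire of the CD29-low population named P5 comprised 354 of the 1247 mouse miRNAs on the array. P5 holds lineage-negative, CD24-positive cells with a low level of CD29 (integrin beta 1) from the mammary gland. The labels call it enriched for luminal cells and, in another field, for luminal progenitors. A miRNA was counted when the scanner software's detection flag was set on all 3 P5 arrays.

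The cells came from virgin wild-type mice of the strain FVB/N-J, and the ages are not given in the labels. Mammary glands were dissociated, cells were sorted by flow cytometry, and RNA enriched for small RNA was labelled with Cy3 at its 3′ end for single-colour microarrays. There were 3 arrays of P5 and, from the same kind of mice, 3 arrays of P4, the CD29-high population, which the labels call enriched for mammary stem cells. The labels do not say whether replicates came from separate mice or sorts, and p-values therefore rest on a spread between samples that may be technical. The summed signal of the detected miRNAs was 381596, 314718 and 277279 intensity units on P5 replicates 1, 2 and 3, against 189539 to 314876 on the P4 arrays. P5 replicate 1 lay in the same row of the slide as the 3 P4 arrays, and P5 replicates 2 and 3 lay in another row.

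A miRNA is a short RNA that guides Argonaute proteins to messenger RNAs. Pairing runs mainly through the seed, bases 2 to 8 of the mature strand, and miRNAs that share a seed are grouped into a family with overlapping targets. Each hairpin precursor can yield a strand from its 5p and its 3p arm, of which one is often kept and the other degraded. In mammary epithelium the miR-200 family is known for repressing Zeb1 and Zeb2, and let-7 is known as a group of miRNAs that accumulates as cells differentiate.

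The luminal label was set against markers of several cell types. All 5 markers given for P5, miR-148a-3p, miR-200c-3p, miR-141-3p, miR-203-3p and miR-34a-5p, were in the repertoire, at ranks 23, 38, 25, 101 and 104 by signal. Among 4 miRNAs tied to luminal and hormone-sensing cells, miR-148a-3p and miR-342-3p were in it, and miR-375-3p and miR-190b-5p were detected on 0 of the 6 arrays. The signal of miR-342-3p was 25.4, 30.1 and 16.6 units on P5 replicates 1, 2 and 3, against 19.3, 32.9 and 28.4 units in P4. Its scaled log2 signal was lower in P5, against the direction of miR-148a-3p (difference of P5 minus P4 -0.83, SE 0.18, limma adjusted p = 0.0112), and this call was lost without scaling (adjusted p = 0.716), with normexp (0.0612), with the authors' values (0.0566) and with no filter (0.112). The basal and contractile markers miR-205-5p, miR-143-3p, miR-145a-5p, miR-221-3p and miR-222-3p were also all detected on every P5 array. Their summed share of the detected signal was 0.341%, 0.364% and 0.211% in P5, against 4.35%, 3.60% and 2.66% in P4. In bulk samples fewer cells of a type and less RNA per cell cannot be told apart.

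The sequences below show which letters the results turn on. All are from RefSeq with build GRCm38.p6, in which 285 of the 354 miRNAs were matched by name, and capitals mark the seed. The first set holds the brightest miRNAs of P5 with a sequence there, all with a miRBase number of 1000 or above. Their genes lie on chromosome 3 (Mir3963), chromosome 16 (Mir6366), chromosome 11 (Mir3968 and Mir5100) and chromosome 10 (Mir6412).
miR-3963: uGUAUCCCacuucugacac
miR-6366: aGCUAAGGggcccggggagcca
miR-3968: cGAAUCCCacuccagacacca
miR-5100: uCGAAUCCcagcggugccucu
miR-6412: uCGAAACCauccucagcuacua

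The second set holds 7 of the 10 strands of let-7 and miR-98, the family with the largest share of the P5 signal, to show the letters outside the shared seed. let-7i-5p, let-7e-5p and let-7k, its 3 dimmest members, are not shown.
let-7a-5p: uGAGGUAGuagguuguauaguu
let-7c-5p: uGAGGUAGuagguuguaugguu
let-7f-5p: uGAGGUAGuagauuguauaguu
let-7b-5p: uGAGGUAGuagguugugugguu
let-7g-5p: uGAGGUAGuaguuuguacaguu
let-7d-5p: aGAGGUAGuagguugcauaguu
miR-98-5p: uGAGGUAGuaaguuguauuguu

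The third set holds the 5 strands of the miR-200 family, whose seeds are AAUACUG and AACACUG, with miR-21a-5p and miR-148a-3p, which are the brightest miRNA numbered below 1000 and the brightest of the 5 markers. Mir200b, Mir200a and Mir429 lie on chromosome 4, Mir200c, Mir141 and Mir148a on chromosome 6, and Mir21a on chromosome 11.
miR-200b-3p: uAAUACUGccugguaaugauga
miR-200c-3p: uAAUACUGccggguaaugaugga
miR-429-3p: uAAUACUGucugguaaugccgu
miR-200a-3p: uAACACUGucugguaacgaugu
miR-141-3p: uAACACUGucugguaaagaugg
miR-21a-5p: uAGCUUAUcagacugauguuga
miR-148a-3p: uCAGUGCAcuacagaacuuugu

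The P5 signal was led by miR-3963, miR-6366 and miR-3968. The background-subtracted signal of miR-3963 was 79517, 69564 and 64550 intensity units on P5 replicates 1, 2 and 3, and 50216, 68972 and 65811 units on P4 replicates 1, 2 and 3. The groups overlapped, and miR-3963 held 22.1% ± 1.20 of the summed signal of the 354 miRNAs in P5 (SD, n = 3). Signal depends on the probe and on the labelling of each strand, so these are ranks of signal and not of molecules.

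The signal of miR-6366 was 76624, 60560 and 58195 units in P5, and 42843, 73962 and 58901 units in P4. miR-3968 had 33980, 28442 and 26116 units in P5, and 14906, 28613 and 22309 units in P4. P5 replicate 1 was the highest of the 6 arrays on both, and P4 replicate 1 the lowest. They held 20.1% ± 0.852 and 9.14% ± 0.257 of the P5 signal (SD, n = 3 each). miR-5100, miR-5097 and miR-6412 held 3.63%, 2.59% and 2.24%. The next place belonged to miR-21a-5p, a miRNA of many tissues that represses Pdcd4. Its signal was 6058, 4122 and 6468 units on P5 replicates 1, 2 and 3, against 1512, 3021 and 1913 units in P4. Every P5 array was above every P4 array in signal, and P5 replicate 2 was the lowest of the P5 arrays. miR-5109, miR-6243 and let-7a-5p completed the first 10, of which 8 had a number of 1000 or above. The first 20 held 5 let-7 strands.

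**Figure D1:**
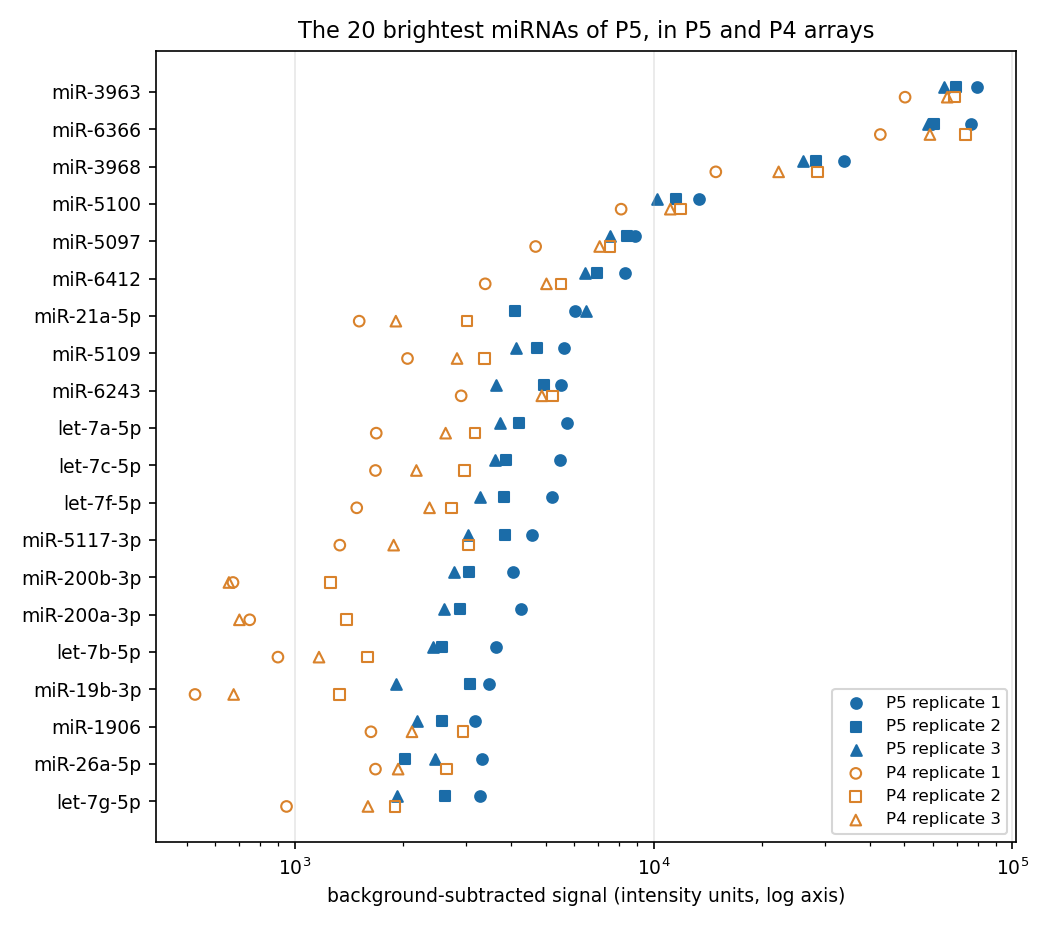
Background-subtracted signal of the 20 brightest miRNAs of P5 in intensity units on a log axis, 1 marker per array, with filled markers for P5 and open markers for P4. miR-3963 lies between 64550 and 79517 units in P5. The signal is not scaled, and miR-21a-5p, let-7a-5p, miR-200b-3p, miR-200a-3p, let-7b-5p and miR-19b-3p are among those with all P5 markers to the right of all P4 markers.

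The P5 signal was concentrated in few miRNAs. The 3 brightest held 51.4% ± 2.03, the 10 brightest 65.9% ± 2.63, the 20 brightest 75.9% ± 2.21 and the 100 brightest 95.2% ± 0.433 (SD, n = 3). The 177 dimmer miRNAs held 1.81% of the signal. On P5 replicates 1, 2 and 3 a number of 4, 3 and 3 miRNAs sufficed for 50% of the signal. The 231 miRNAs with a number below 1000 were spread more evenly, since the 10 brightest of them held 36.6% ± 2.75 of their own summed signal and 17, 18 and 15 were needed for 50%.

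The concentration was compared with that of P4 through the share of each array's own 10 brightest miRNAs. It was 63.9%, 64.7% and 68.9% on P5 replicates 1, 2 and 3, and 71.5%, 68.1% and 71.1% on P4 replicates 1, 2 and 3. The means were 65.8% ± 2.71 in P5 and 70.2% ± 1.88 in P4 (SD, n = 3 each), a difference of -4.41 percentage points with p = 0.2 in a 2-sided exact permutation test and an adjusted p of 0.343 over the 8 array measures tested. The groups overlapped, and 3 against 3 arrays cannot give a p below 0.1. Of the first 10 and the first 20 miRNAs of P5, 7 and 14 were also among the first 10 and the first 20 of P4.

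**Figure D2:**
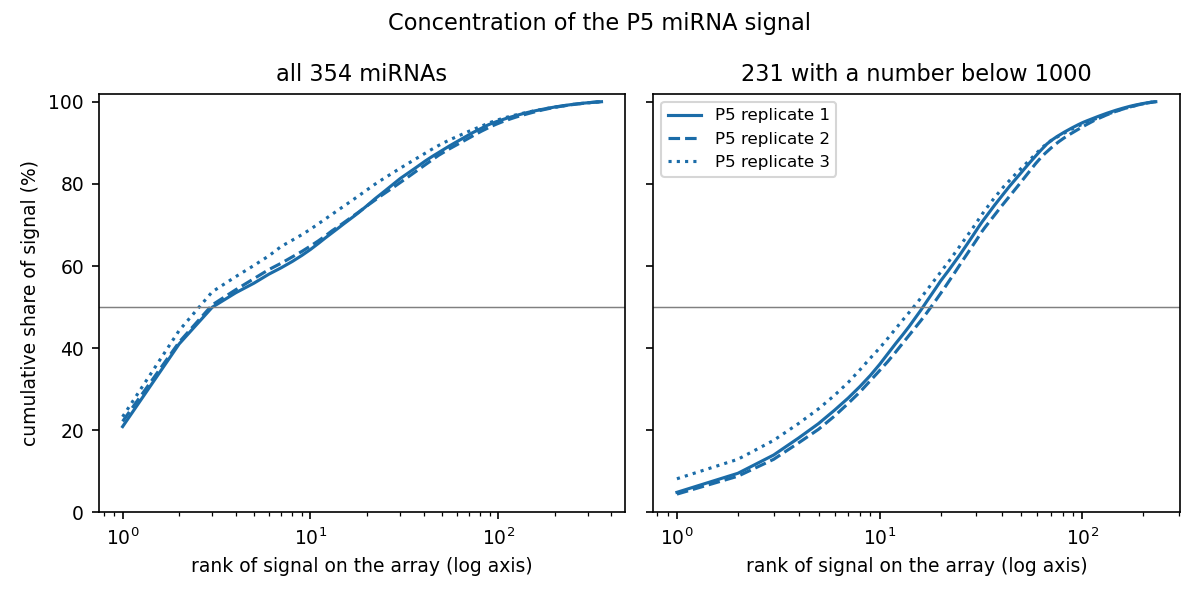
Cumulative share of the P5 signal in percent against the rank of signal on the array (log axis), 1 line per P5 replicate, for all 354 miRNAs and for the 231 with a number below 1000, with a grey line at 50%. In the left panel the lines cross 50% at 3 to 4 miRNAs and in the right panel at 15 to 18.

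miRNAs with a number of 1000 or above, which entered miRBase late, made up 123 of the 354 and held 69.6% ± 2.03 of the signal in P5 (SD, n = 3). By count, 27.4% of the 449 such miRNAs on the array were in the repertoire, and 28.9% of the 798 numbered below 1000. The sequences of the late members were richer in G and C. Their median GC content was 61.9% over 88 members with a sequence, against 52.4% over 275 late miRNAs that were not members. Below number 1000 the medians were 47.8% and 47.4%. A U as the last base was found in 14.8% of the late members and in 31.3% of the late miRNAs outside the repertoire.

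Several of the brightest late members shared letters. The longest run common to miR-3968 and miR-5100 was CGAAUCCCA, and that of miR-3963 and miR-3968 was AUCCCACU. The letters AUCCCA, searched in the mature strand as written, occurred in 4 of the 1017 miRNAs of the array with a sequence (0.393%), and all 4, miR-3963, miR-3968, miR-5100 and miR-191-5p, were in the repertoire. The letters were chosen after the ranks had been seen and are a description.

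Before scaling, the highest over the lowest P5 signal was 1.23-fold for miR-3963, 1.18-fold for miR-5097 and 1.51-fold for miR-6243, all late, and 1.53-fold for let-7a-5p and 1.82-fold for miR-19b-3p. After scaling the order was another, with an SD on the log2 scale of 0.25 for miR-3963, 0.26 for miR-5097 and 0.07 for miR-6243, and of 0.19 for let-7a-5p and 0.08 for miR-19b-3p. The array's scaling signal, the 75th percentile of the 293 miRNAs that every array detected, spanned 1.67-fold over the P5 arrays. The probes of 1 miRNA differed by a median of 1.24-fold between the brightest and the dimmest, and by more than 4-fold in 36 members. miR-6412 had the widest gap of the first 20, 8.20-fold.

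Among the miRNAs numbered below 1000, let-7 took several of the leading places. The signal of let-7a-5p was 5735, 4215 and 3743 units on P5 replicates 1, 2 and 3, against 1687, 3176 and 2633 units in P4. The values of the P5 arrays were all above those of the P4 arrays before scaling, and after scaling the groups overlapped (log2 difference of P5 minus P4 0.24, SE 0.16, limma adjusted p = 0.286). let-7c-5p, let-7f-5p, let-7b-5p and let-7g-5p were at ranks 11, 12, 16 and 20.

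The miR-200 strands came next. miR-200b-3p had 4048, 3061 and 2776 units on P5 replicates 1, 2 and 3, and 673, 1258 and 655 units in P4. The scaled signals of the groups did not overlap for 156 of the 370 miRNAs tested (42.2%), this miRNA among them. miR-200a-3p, from the same gene cluster, had 4279, 2896 and 2605 units in P5, and 749, 1395 and 701 units in P4. It did not overlap either, and miR-200b-3p and miR-200a-3p held like shares of the P5 signal, 1.01% ± 0.045 and 0.996% ± 0.112 (SD, n = 3). From the other cluster miR-141-3p held 0.530% and miR-200c-3p 0.363%.

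miR-19b-3p of the miR-17-92 cluster, a cluster known as an oncogene in lymphoma, had 3479, 3072 and 1912 units on P5 replicates 1, 2 and 3, against 527, 1333 and 676 units in P4. The groups did not overlap. miR-26a-5p, which represses Ezh2, had 3318, 2028 and 2454 units in P5, and 1678, 2644 and 1941 units in P4, with overlapping groups. miR-148a-3p, a miRNA abundant in milk that represses Dnmt1, was at rank 23 with 3005, 2127 and 1370 units in P5, against 61.0, 191 and 100.3 units in P4. The groups did not overlap.

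Of the 285 members with a sequence, 205 had a seed of their own and 80 shared 27 seeds. The 80 held 21.4% ± 1.75 of the signal in P5 (SD, n = 3). The family with the seed GAGGUAG, 10 members of let-7 and miR-98, held 8.06%, 7.27% and 7.06% on P5 replicates 1, 2 and 3, and 4.82%, 5.36% and 5.21% of the signal of the same miRNAs on P4 replicates 1, 2 and 3. All P5 arrays were above all P4 arrays. Groups without overlap were usual, since they were found in most of the 27 shared seeds, in some of them with P5 lower. For single miRNAs, the scaled signals of the groups did not overlap in 156 of the 370 tested (42.2%). Among miRNAs numbered below 1000 alone, this family held 24.6% ± 0.361 of the P5 signal.

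The members of this family that could be aligned differed at 1 to 6 positions, and let-7c-5p and let-7f-5p each differed from let-7a-5p at 1 position. Signal shared between such probes was not tested. let-7a-5p, let-7c-5p and let-7f-5p held 1.40% ± 0.092, 1.33% ± 0.106 and 1.26% ± 0.094 of the P5 signal (SD, n = 3). These ranges overlap over the arrays, but the order was the same on each of the 3 P5 arrays.

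The seed AAUACUG of miR-200b-3p, miR-200c-3p and miR-429-3p held 1.69% ± 0.056 in P5 and 0.585% ± 0.142 in P4. The seed AACACUG of miR-200a-3p and miR-141-3p held 1.53% ± 0.199 in P5 and 0.511% ± 0.157 in P4 (SD, n = 3 each). In both families every P5 array lay above every P4 array. The seed UCAAGUA of miR-26a-5p and miR-26b-5p held 1.59% ± 0.228 in P5 and 1.53% ± 0.061 in P4, with overlapping groups.

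The seed AGCACCA of miR-29a-3p, miR-29b-3p and miR-29c-3p, which repress collagens, held 1.27% ± 0.301 in P5 and 0.770% ± 0.083 in P4. The seed GUGCAAA of miR-19b-3p and miR-19a-3p held 1.27% ± 0.251 in P5 and 0.436% ± 0.131 in P4. The seed AAAGUGC, shared by miR-20a-5p, miR-20b-5p, miR-93-5p, miR-106b-5p and miR-17-5p, held 1.15% ± 0.338 in P5 and 0.430% ± 0.138 in P4. In these 3 families each P5 array lay above each P4 array, and most of the 27 shared seeds had groups without overlap.

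The seed GUAAACA of miR-30c-5p, miR-30a-5p and miR-30e-5p held 0.999% ± 0.122 in P5 and 0.522% ± 0.057 in P4, and the seed AGCAGCA of miR-16-5p and 5 relatives 0.893% ± 0.110 in P5 and 0.941% ± 0.085 in P4. The groups overlapped for the miR-16-5p family. The seed CAGUGCA of miR-148a-3p, miR-148b-3p and miR-152-3p held 0.739% ± 0.158 in P5 and 0.109% ± 0.021 in P4, and that of miR-125a-5p and miR-125b-5p, CCCUGAG, 0.360% ± 0.042 in P5 and 1.75% ± 0.168 in P4 (SD, n = 3 each). These shares are of the miRNAs chosen by their detection in P5, so they describe P4 only for those miRNAs and were not tested.

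**Figure D3:**
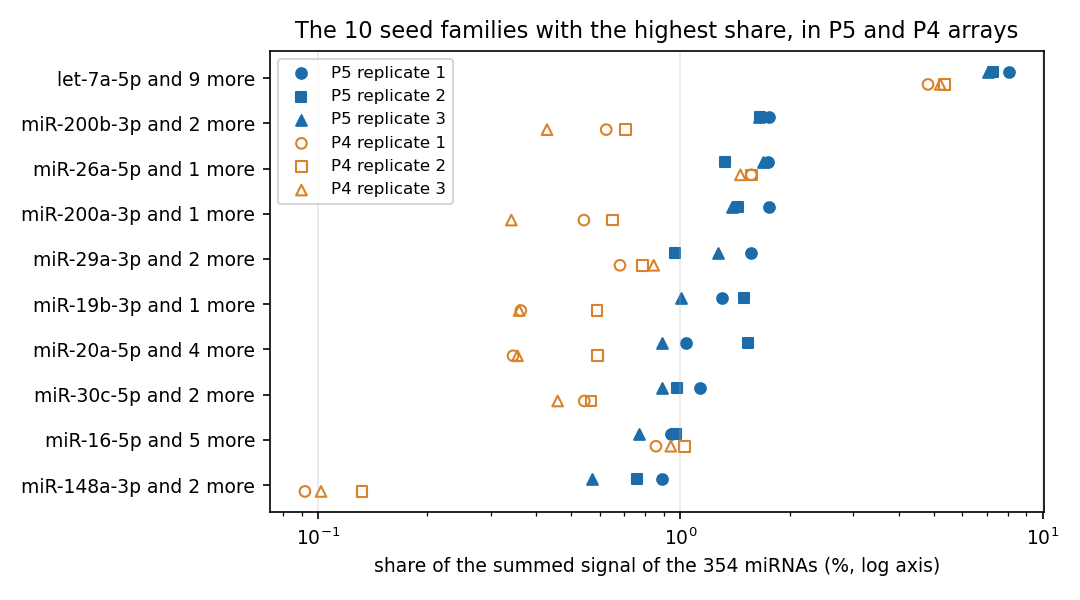
Share of the summed signal of the 354 miRNAs in percent (log axis) held by the 10 seed families with the highest share, named by their brightest member, 1 marker per array, with filled markers for P5 and open markers for P4. The let-7 family lies between 7.06% and 8.06% in P5 and the miR-148a-3p family between 0.572% and 0.887%.

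Strands were also summed over genes that neighbour each other. The cluster of Mirlet7a-1, Mirlet7d and Mirlet7f-1 on chromosome 13 accounted for up to 3.32% ± 0.227 of the P5 signal through 6 strands, that of Mir200a, Mir200b and Mir429 on chromosome 4 for 2.32% ± 0.164 through 3, and that of Mir17 to Mir92-1 on chromosome 14 for up to 2.09% ± 0.439 through 8 (SD, n = 3 each). Strands made from several loci were counted in full for each. Within the chromosome 4 cluster the brightest strand, miR-200b-3p, had 3.28-fold the share of the dimmest, miR-429-3p.

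Of 422 hairpins with both arms on the array, 196 had an arm in the repertoire. The 5p arm alone was in it for 81, the 3p arm alone for 83 and both arms for 32. Of these 32 hairpins the 5p arm was brighter on all 3 P5 arrays in 18 and the 3p arm in 9, and in 5 the arrays differed in direction. The ratio was beyond 8-fold in 11.

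The largest 5p excess belonged to let-7b, let-7d and miR-20a. For let-7b the 5p strand had 3628, 2577 and 2428 units on P5 replicates 1, 2 and 3, and the 3p strand 22.9, 18.4 and 24.0 units, a log2 ratio of 7.03 ± 0.34 (SD, n = 3). The largest 3p excess belonged to miR-29a, miR-141 and miR-3068, with log2 ratios of 5p over 3p of -6.65 ± 0.19, -6.37 ± 0.15 and -5.21 ± 0.13. The dim arms are shown for their seeds, which differ from those of the bright strands printed above.
let-7b-3p: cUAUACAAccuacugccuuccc
let-7d-3p: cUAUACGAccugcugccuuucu
miR-29a-5p: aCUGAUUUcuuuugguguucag
miR-141-5p: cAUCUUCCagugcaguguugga

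Other hairpins had arms of like signal. The log2 ratio of miR-140 was 0.67 ± 0.08 and that of miR-31 0.69 ± 0.05, while miR-126 and miR-142 kept a ratio of -1.89 ± 0.01 and -2.18 ± 0.03 although the level of miR-126 differed widely between the arrays (SD, n = 3 each). The ratio of miR-877 varied most, with 1.59, 2.63 and 0.33 on P5 replicates 1, 2 and 3. Since probes of the arms differ, a ratio within P5 carries their affinity.

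**Figure D4:**
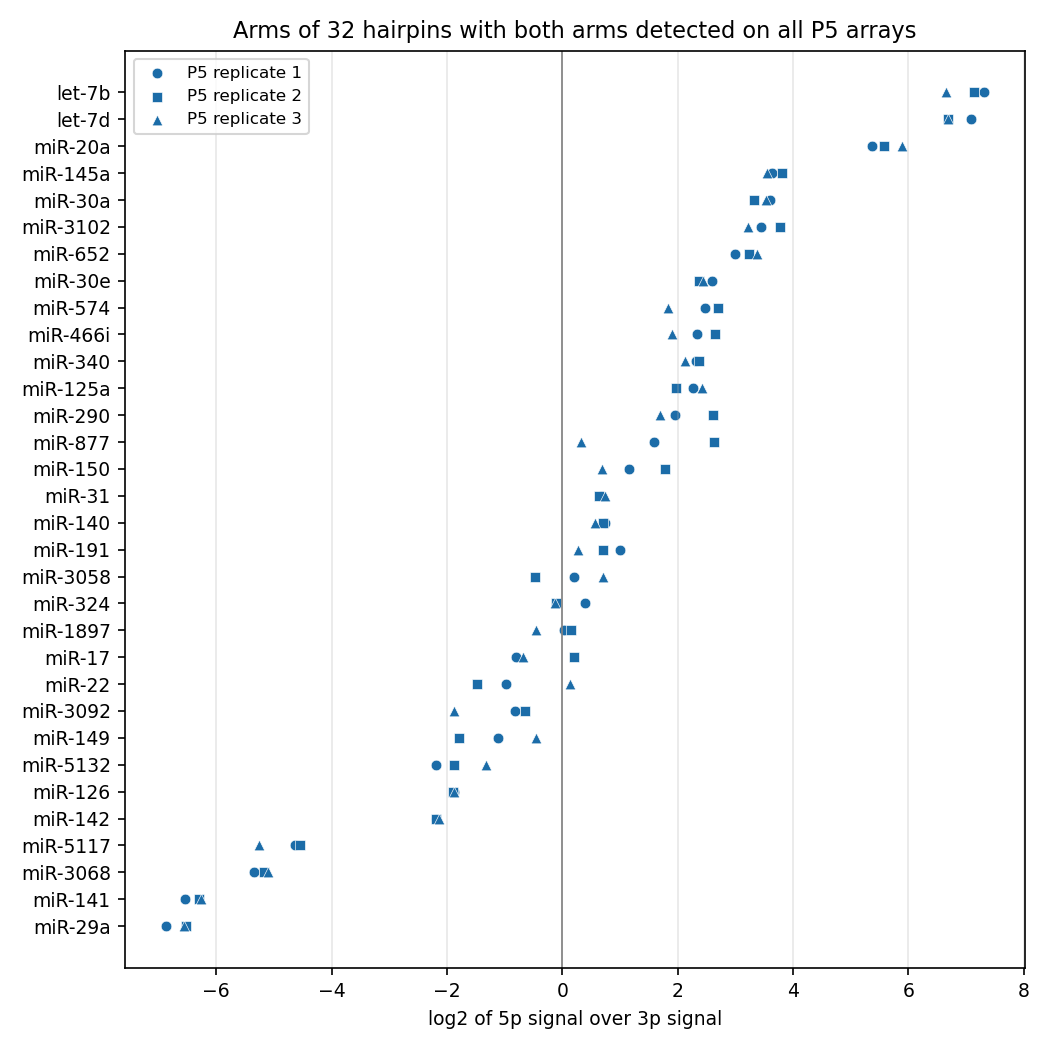
Log2 of the 5p over the 3p signal for the 32 hairpins with both arms in the repertoire, 1 marker per P5 replicate. Values run from let-7b at the top to miR-29a at the bottom, and for most hairpins the 3 markers lie close to each other compared with the range over hairpins.

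The balance of arms was compared between populations for the 24 hairpins with both arms detected on all 6 arrays. Probe affinity cancels there only if signal follows amount in proportion, which was not tested for dim strands. The test called 1 hairpin, let-7b (4.17% of those tested). Its log2 ratio of 5p over 3p was 7.31, 7.13 and 6.66 on P5 replicates 1, 2 and 3, against 5.34, 5.81 and 6.02 on P4 replicates 1, 2 and 3, a difference of 1.31 (SE 0.25, limma adjusted p = 0.0471). The groups did not overlap for let-7b, nor for let-7d and miR-191, which were also higher in P5. They did not overlap either for miR-145a, miR-125a, miR-31, miR-324, miR-142 and miR-29a, all lower in P5. For the rest of the 24 hairpins the groups overlapped, so groups without overlap were not particular to let-7b. The 3p strand of let-7b was near the dim end of the repertoire on every P5 array. The call was lost in 9 of 13 alternatives: without either P5 replicate 1 or P5 replicate 2, without any 1 P4 replicate, with the row of the slide as a block, with Agilent's summed signal, with the authors' values and with the replicate block (adjusted p 0.0517 to 0.158). miR-191 had a difference of 1.31 as well (SE 0.34, adjusted p = 0.103).

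The replicates of P5 were close for most miRNAs. The median SD of the log2 scaled signal over the 3 P5 arrays was 0.23, or 1.17-fold, and it was 0.14 without P5 replicate 3. Over the 118 dimmest members it was 0.27, over the 118 in the middle 0.20 and over the 118 brightest 0.21. The same median over the 309 miRNAs detected on all P4 arrays was 0.23. Across the 354 miRNAs, Pearson's r of log2 scaled signal was 0.990 between P5 replicates 1 and 2, 0.983 between 1 and 3 and 0.977 between 2 and 3, a description across miRNAs that share an array.

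P5 replicate 3 stood apart in part of the repertoire. Over the 118 dimmest members the median deviation from the mean of the 3 arrays was 0.21 on P5 replicate 3, against -0.14 and -0.13 on P5 replicates 1 and 2. P5 replicate 3 also had the fewest detected miRNAs of the P5 arrays, 367 against 416 and 419. The median deviation on P5 replicate 3 was 0.07 over the 118 members in the middle and 0.11 over the 118 brightest. Members had to be detected on P5 replicate 3, which can favour dim miRNAs with a high value there. The part of this rule in the deviations was not tested. The widest SD among the brighter 177 miRNAs belonged to miR-804, miR-126-3p, miR-126-5p, miR-5119 and miR-193a-3p. The signal of miR-126-3p, a miRNA of endothelial cells, was 962, 693 and 190 units on P5 replicates 1, 2 and 3, and 1205, 2828 and 4501 units on P4 replicates 1, 2 and 3.

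The miR-126 strands moved together across the P5 arrays, and P5 replicate 3 was the lowest for both. miR-804 went the other way, with 88.7, 108 and 220 units and the highest value on P5 replicate 3. The narrowest SD belonged to miR-5105, miR-30e-3p, miR-340-5p, miR-3096b-3p and miR-30a-3p, at 0.03 to 0.05 on the log2 scale. Whether cells of another type took part in the spread was not tested.

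**Figure D5:**
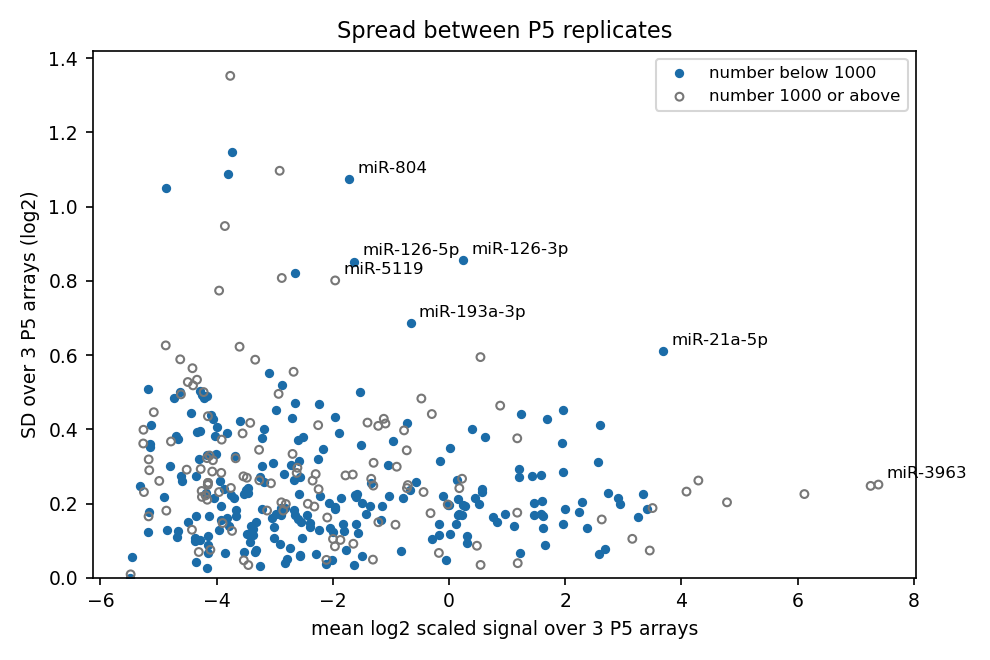
SD over the 3 P5 arrays against the mean log2 scaled signal, 1 point per miRNA, filled for numbers below 1000 and open for 1000 or above. miR-804 and the miR-126 strands lie above most miRNAs of like signal, and miR-3963 at the right end has an SD of 0.25.

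The brightest miRNAs of P5 were set against P4 with limma on the scaled log2 signal, which tested 370 miRNAs and called 103 (27.8%), 52 of them higher in P5 (14.1%) and 51 lower in P5 (13.8%). The split depended on the scaling, with 77 higher and 23 lower without scaling, 77 and 47 with scaling over all mouse miRNAs, 74 and 52 with quantile normalization, 81 and 31 with the authors' values and 25 and 49 with normexp background correction. Part of the 370 was admitted through detection in 1 group alone. Over the 293 miRNAs detected on all 6 arrays the calls were 35 higher and 36 lower. Among the first 20 of P5 there were 4 higher and 1 lower calls. Over the alternatives there were 1 to 9 higher calls, 1 with no filter, 2 with the row block, 8 with quantile normalization and 9 with the authors' values, and 0 or 1 lower. miR-200b-3p was higher in P5 by 1.33 (SE 0.21, adjusted p = 0.00253), miR-200a-3p by 1.17 (SE 0.22, adjusted p = 0.00591), miR-19b-3p by 1.15 (SE 0.17, adjusted p = 0.00222) and let-7b-5p by 0.60 (SE 0.17, adjusted p = 0.0357), all on the log2 scale. The call of let-7b-5p was lost with Agilent's summed signal (adjusted p = 0.0658), without the detection filter (0.183), when blocking on the row of the slide (0.167) and without any array but P5 replicate 2 (0.0615 to 0.110). miR-6243 had a difference of -0.51 (SE 0.16, adjusted p = 0.0496), a call that held under none of the alternatives but the one without P4 replicate 2, and without scaling the difference was 0.14. Being chosen for their brightness in P5, these 20 favour a higher value there.

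The 3 brightest miRNAs did not pass the test in the chosen setting. For miR-6366 the scaled signals of the groups did not overlap, with P5 lower, as in 42.2% of the 370 miRNAs tested. It passed without P5 replicate 3 (limma adjusted p = 0.0375). The log2 difference was -0.44 for miR-3963 (SE 0.21, adjusted p = 0.161), -0.48 for miR-6366 (SE 0.18, adjusted p = 0.0905) and -0.19 for miR-3968 (SE 0.16, adjusted p = 0.433). Without scaling the same differences were 0.22, 0.18 and 0.47, when the median of all 370 miRNAs moved to 0.64. miR-21a-5p had a difference of 0.75 (SE 0.30, adjusted p = 0.111), and it passed the test under 4 alternatives, among them quantile normalization and no scaling.

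Of the 5 markers, miR-148a-3p, miR-203-3p, miR-141-3p and miR-200c-3p passed the test. The 5 were chosen with earlier results of these data known and are no independent evidence of the label. The difference was 3.64 for miR-148a-3p (SE 0.21, adjusted p = 1.48e-05), or 12.4-fold, and 3.20 for miR-34a-5p, a target of p53 (SE 0.31). It was 2.70 for miR-203-3p, which represses p63 in skin, 1.74 for miR-141-3p and 1.61 for miR-200c-3p. miR-34a-5p, which 2 of the 3 P4 arrays detected, had 241, 201 and 184 units in P5, against 6.40, 20.5 and 22.3 units in P4. It was in the main test only because every P5 array detected it, so no p is given from there. With no filter on detection its limma adjusted p was 0.0327. The call of miR-34a-5p was lost with Agilent's summed signal (adjusted p = 0.126) and with the authors' values (adjusted p = 0.0957), and blocking on the row of the slide ended those of miR-200a-3p (0.0637) and miR-141-3p (0.0705). With no filter on detection the calls of miR-200b-3p, miR-200a-3p, miR-200c-3p and miR-141-3p were lost too (adjusted p 0.0533 to 0.167).

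Of the 354 miRNAs, 293 were detected on all P4 arrays, 47 on 1 or 2 and 14 on none. The 14 lay at rank 199 or below, and none held more than 0.0181% of the P5 signal. The brightest, miR-210-3p, a target of HIF in hypoxia, had 82.3, 58.8 and 38.5 units on P5 replicates 1, 2 and 3, against 1.44, 4.77 and -0.61 units in P4. On the log2 scale P5 was 2.60 above the floor that stood for P4, 2.12 with the brightest probe and 0.30 with normexp background correction. miR-362-3p had 46.6, 30.8 and 21.5 units in P5, against 1.44, 12.6 and 7.61 units in P4. miR-7a-5p and miR-141-5p, the dim arm shown above, had 18.6 to 28.3 and 16.1 to 25.8 units in P5. These 4 were tested only because P5 detected them, so no p is given, and with normexp the differences of miR-362-3p, miR-7a-5p and miR-141-5p had the opposite sign.

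Markers of other cells were uneven in P5. Both miR-126 strands, 5 of 6 leukocyte miRNAs and 1 of 4 mesenchymal miRNAs were in the repertoire, and 0 of 4 skeletal muscle, 0 of 2 erythroid, 0 of 1 liver and 0 of 2 neural miRNAs. Over all mouse miRNAs on the array it was 354 of 1247. The erythroid miR-451a was detected on 2 of the 3 P5 arrays, with 15.2 and 12.4 units on P5 replicates 1 and 2, and on 2 P4 arrays. The endothelial pair held 0.321%, 0.279% and 0.0871% of the detected signal on P5 replicates 1, 2 and 3, against 0.794%, 1.14% and 2.15% on P4 replicates 1, 2 and 3. The leukocyte list held 0.101%, 0.146% and 0.0952% in P5 and 0.109%, 0.207% and 0.377% in P4. The defining leukocyte marker miR-142-3p had 217, 281 and 142 units in P5.

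At the edge of the rule, the dimmest members were miR-875-3p, with 4.64, 5.64 and 1.30 units on P5 replicates 1, 2 and 3, and miR-1965, miR-711, miR-301b-3p and miR-5132-5p, with means of 8.53 to 10.6 units. A further 51 miRNAs were detected on 2 of the 3 P5 arrays, and 38 on 1. The brightest of the 51, miR-1983, miR-33-5p, miR-5619-3p, miR-669l-5p and miR-302c-3p, had means of 28.1, 28.1, 27.6, 25.1 and 22.0 units, above the dimmest members, and all 5 were missed on P5 replicate 3.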

How the data were processed

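Small-RNA-enriched RNA of 3 P5 and 3 P4 samples was hybridised to 6 Agilent arrays on 1 slide and read in 1 scan. Per the file headers, Agilent Feature Extraction 11.0.1.1 wrote the deposited linear, background-subtracted spot intensity; the submitters' processing notes give version 11.0. Values in the authors' series matrix are log2. Its columns follow the log2 of Agilent's summed signal up to a shift per array and a constant per row, within 1.08e-05, so scale and direction are settled and the centring is not. Its column medians were -0.56, -0.47 and 0.06 for P5 and 0.42, -0.36 and -0.06 for P4. Array number limits the precision.

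Control and outlier spots were left out, and of 49880 non-control spots per array 0 were saturated. Probe means were averaged to 1 signal per miRNA. The scaling signal of an array was the 75th percentile of the 293 miRNAs that every array detected. After division by it, values under 0.0223 (-5.49 as log2) were set to that floor, the 95th percentile of undetected miRNAs taken as a median of the arrays, before log2 was taken. limma 3.58.1 in R 4.3.3 (lmFit, eBayes, no block) tested the 370 miRNAs detected on all arrays of either group, with Benjamini-Hochberg adjustment at 0.05. Simulated data used to try the fits held independent normal noise, with no floor and no row effect, so they do not test those. The miRNAs named were the 20 brightest, the markers, leading members of seed families and marker lists, hairpins and miRNAs at the ends of the ratios and of the spread, and those at the edge of the rule; those with no level in P4 were added after their values were seen. The members and lists were chosen with earlier results of these data known. The alternatives were other signals, background correction, scalings, floors, filters, blocks, the authors' values and each array left out.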

Additional observations from a re-analysis of the deposited data

Results flagged for a closer look

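The balance of the let-7b arms passed the test between the populations in the chosen setting and lost the call in 9 of 13 alternatives. The log2 ratio of 5p over 3p averaged 7.03 ± 0.34 in P5 and 5.72 ± 0.34 in P4 (SD, n = 3 each), a difference of 1.31 in a test of the difference itself (limma adjusted p = 0.0471 over 24 hairpins). The ratio was higher in 3 of 3 P5 arrays than in any P4 array, as it also was for let-7d and miR-191. For miR-145a, miR-125a, miR-31, miR-324, miR-142 and miR-29a it was lower in every P5 array. The groups overlapped for the rest of the 24 hairpins, so groups without overlap were not particular to let-7b. Under the alternatives the adjusted p of let-7b ran from 0.00755 to 0.158. Its part in any process was not tested.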

How the results depend on the processing

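The share of the 10 brightest miRNAs was 61.7% with normexp background correction. Counted over miRNAs numbered below 1000, an alternative chosen after seeing the data, it was 36.6%, with 17 miRNAs for 50% of the signal and 24.6% for the let-7 family. The median spread was 0.35 without scaling and 0.14 to 0.26 with each P5 array left out. The share of the 3 brightest was 47.9% with normexp, against 51.4% in the chosen setting. The other settings kept these values, the count of members, the arms count and the concentration against P4 within the limits set. For counts the limit was 1.5-fold. Hairpins with a brighter 5p arm numbered 18 in the chosen setting, 24 with detection on at least 2 P5 arrays and 26 without P5 replicate 3. Of the calls between populations, 25 were higher in P5 with normexp, 81 with the authors' values, 22 with no filter and 23 with the row of the slide as a block. Lower in P5 were 23 without scaling, 31 with the authors' values, 25 with no filter and 29 with the row as a block. With the replicate block 57 were higher and 54 lower. Deviations of same-numbered arrays correlated at -0.070, 0.369 and 0.086, and not every array correlated best with its own number. With 3 arrays per group this cannot show whether same-numbered arrays share a mouse, a sort or a day. Hairpins called with a higher balance numbered 0 with Agilent's summed signal, the authors' values, the replicate block and the row as a block, 2 with the brightest probe, 5 with both arms detected in 1 group, and 0 to 1 with each array left out. Those with a lower balance numbered 1 with the brightest probe, 1 with normexp and 3 with both arms detected in 1 group.

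Directions changed without scaling for miR-3963 (0.22), miR-6366 (0.18), miR-3968 (0.47), miR-5100 (0.19), miR-5097 (0.39), miR-6243 (0.14), miR-1906 (0.27), miR-26a-5p (0.31) and miR-26b-5p (0.52). They changed with quantile normalization for miR-3963 (0.0496), miR-6412 (-0.0682) and miR-26b-5p (0.18), with the authors' values for miR-3968 (0.14), miR-5097 (0.0633) and miR-26b-5p (0.19), and with scaling over all miRNAs for miR-26b-5p (0.0319). With normexp miR-362-3p (-0.11), miR-7a-5p (-0.17) and miR-141-5p (-0.11) changed. miR-6412 changed with the row as a block (-0.10) and with an array left out (-0.128 to 0.0861, below 0 without P5 replicate 3 or P4 replicate 2), and miR-26b-5p with an array left out (-0.267 to 0.0355, above 0 without P5 replicate 2). The arm balance of miR-29a was 0.20 with Agilent's summed signal and with the authors' values. The cause was not tested. Of 23 named miRNAs with a call, 7 kept it under every alternative: miR-19b-3p, miR-148a-3p, miR-203-3p, miR-205-5p, miR-143-3p, miR-145a-5p and miR-221-3p. The 23 include miR-34a-5p, miR-210-3p, miR-362-3p, miR-7a-5p and miR-141-5p, which were tested only because P5 detected them. The array row lost the calls of 7 named miRNAs and no filter those of 12. The median difference of all miRNAs moved to 0.64 without scaling, 0.43 with the authors' values, -0.26 with normexp, 0.17 with scaling over all miRNAs and 0.13 with quantile normalization.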
